A study of Mus musculus with 12 samples.

Results

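Hearts of mice exposed to intermittent hypoxia without infarction were set against sham hearts across all measured genes. The comparison uses 6 of the 12 libraries of the series, 3 labelled CIH and 3 labelled sham. All 12 came from hearts of C57BL/6J mice, an inbred laboratory strain, and the remaining 6 were labelled MI and MI+CIH, 3 each. CIH is read here as chronic intermittent hypoxia and MI as myocardial infarction. The labels give total RNA from whole frozen hearts and no age, hypoxia schedule, collection time or surgery, so whether the CIH mice had a sham operation is not known here. Values are FPKM, read numbers divided by exon length and by the depth of the library, so levels of different genes can be set beside each other. Of 26781 genes in the table, 15503 reached 0.5 FPKM in at least 3 of the 12 libraries and were tested.

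Intermittent hypoxia, in which oxygen falls and recovers many times within a day, models obstructive sleep apnoea. Low oxygen stabilises the HIF transcription factors, which turn on genes of glycolysis, vessel growth and red cell production, and the cycles of reoxygenation raise reactive oxygen species. Cells with misfolded protein in the endoplasmic reticulum (ER) start the unfolded protein response. Its ATF6 and XBP1 arms raise chaperones, and its PERK arm acts through the transcription factor ATF4 on Ddit3, which encodes CHOP, a transcription factor known to promote cell death under long stress.

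The libraries held 28.22 to 30.34 M reads in sham and 28.14, 33.42 and 33.16 M in CIH 1, 2 and 3. Heart muscle was the main source of RNA in all 6, with Myh6, the main adult myosin heavy chain, at 4637 to 6601 FPKM in sham and 4258 to 5365 FPKM in CIH. Replicates correlated across genes at Pearson r of 0.9605 to 0.9654 in sham. Within CIH, r was 0.945 for libraries 1 and 2, 0.9499 for 1 and 3 and 0.9611 for 2 and 3. On the first principal component of the 6 libraries, with 35.8% of the variance, CIH 1 lay at 14, beside sham 1 and 3 at 14.9 and 15.6. It lay away from CIH 2 and 3 at -39.2 and -39.3, and sham 2 lay at 34. On the second component, with 20.1%, CIH 1 lay at 35.9, the farthest from sham at -14, -6.2 and -12.7. CIH 2 and 3 lay there at -24.6 and 21.6. Sham 2 held airway RNA: the summed level of 12 airway markers was 593 FPKM there, against 3.1 and 2.49 in sham 1 and 3 and 0.955, 20.3 and 3.7 in CIH 1, 2 and 3. Atrial muscle markers also differed between libraries, with a summed level of 3027, 2540 and 1850 FPKM in sham and 405, 2372 and 709 FPKM in CIH. In bulk RNA, fewer cells of a type and less RNA per cell cannot be told apart.

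A single gene, Ddit3, passed the test, 0.00645% of the genes tested. Its level was 13.6, 13.8 and 13.1 FPKM in sham and 4.69, 5.66 and 6.14 FPKM in CIH, so the groups did not overlap and the gap between them was wider than the spread within either. Ddit3 (ENSMUSG00000025408, chromosome 10, 127290774 to 127296288, GRCm38) fell by 1.23 on the log2 scale (SE 0.13, limma, adjusted p = 0.0115). The sham libraries also stood above the 9 other libraries of the series, since Ddit3 was at 7.39, 6.96 and 8.25 FPKM in MI and 8.58, 10 and 7.94 FPKM in MI+CIH. The log2 difference stayed between -1.31 and -1.12 over 19 other settings, and the call held in 13 of them. It was lost without sham 1 (adjusted p = 0.122), sham 2 (0.132) or CIH 2 (0.0786), without sham 2 and CIH 1 together (0.119), in a fit of only the 6 libraries compared (0.130) and with the replicate number as a block (0.0777).

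The promoter windows of Ddit3, of the ER chaperone gene Hspa5 and of Gbp5, the interferon-induced gene next in p, are shown because each of the 3 genes belongs to a response arm described below. Each is 300 bases from RefSeq (GRCm38.p6), running from 250 bases before the start of the gene to 50 bases after it, on the plus strand, at chr10:127290543-127290842, chr2:34771840-34772139 and chr3:142496684-142496983. Capitals in the Ddit3 and Hspa5 windows mark the ER stress element, on either strand, in the form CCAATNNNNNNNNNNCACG.
Ddit3: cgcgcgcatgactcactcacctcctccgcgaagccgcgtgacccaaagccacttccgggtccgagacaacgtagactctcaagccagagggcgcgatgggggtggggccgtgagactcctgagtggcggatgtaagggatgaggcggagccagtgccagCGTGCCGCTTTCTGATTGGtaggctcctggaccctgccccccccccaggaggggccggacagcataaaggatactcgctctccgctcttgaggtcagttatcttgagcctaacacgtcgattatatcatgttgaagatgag
Hspa5: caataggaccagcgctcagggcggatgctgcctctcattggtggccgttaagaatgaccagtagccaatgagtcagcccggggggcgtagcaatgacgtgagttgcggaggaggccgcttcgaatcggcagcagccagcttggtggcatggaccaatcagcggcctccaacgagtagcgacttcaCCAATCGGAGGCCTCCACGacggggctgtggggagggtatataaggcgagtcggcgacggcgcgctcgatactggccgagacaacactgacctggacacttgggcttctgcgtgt
Gbp5: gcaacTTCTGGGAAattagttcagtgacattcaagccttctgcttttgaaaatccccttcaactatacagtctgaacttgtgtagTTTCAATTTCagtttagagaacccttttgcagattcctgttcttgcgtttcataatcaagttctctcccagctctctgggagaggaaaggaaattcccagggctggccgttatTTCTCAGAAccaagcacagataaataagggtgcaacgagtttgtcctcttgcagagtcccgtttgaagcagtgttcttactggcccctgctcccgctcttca

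That form was in 87 of 32851 windows of the same length (0.265%), and the stricter form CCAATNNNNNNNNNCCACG in 39 (0.119%). Hspa5 held both forms, and Ddit3 only the first. Both genes thus share a matching element, yet Ddit3 lay lower in CIH and Hspa5 higher. In the Gbp5 window, capitals mark 1 match to the interferon-stimulated response element GAAANNGAAA, in 3.44% of windows, and 2 matches to the gamma-activated site TTCNNNGAA, in 8.3%, on either strand with no overlap between them. A match describes the letters of the window and not binding.

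Around Ddit3, the remaining genes of the ATF4 and CHOP branch lay close to sham. Of 46 tested members, Ddit3 was called lower and none was called higher. The median log2 difference was -0.02, beside -0.07 over all tested genes. All 3 CIH libraries lay above all 3 sham libraries for 3 members, and below them for 4, and with CIH 1 left out the counts were 9 and 6. Over all tested genes the first pattern held for 879 (5.67%) and the second for 1836 (11.8%), and without CIH 1 for 18.4% and 21.6%. Atf4, the activator upstream of CHOP, stood at 39.4, 40 and 40 FPKM in sham and 36.7, 43 and 38 FPKM in CIH. Trib3, a CHOP target that restrains AKT, was at 1.39, 0.867 and 1.43 FPKM in sham and 0.786, 1.34 and 0.568 FPKM in CIH. For Atf4 and Trib3 the groups overlapped (limma, adjusted p = 0.957 and 0.654). The member next in p was Ddit4, an inhibitor of the growth kinase mTOR that also responds to hypoxia and glucocorticoids. Its level was 9.86, 7.67 and 3.96 FPKM in sham and 17.3, 24.9 and 12.8 FPKM in CIH (log2 difference 1.33, SE 0.41, adjusted p = 0.293), with no overlap and no pass.

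Genes of protein folding in the ER lay on the other side. All 3 CIH libraries lay above sham for 8 of 29 members and below it for none, beside 5.67% and 11.8% of all tested genes. The median log2 difference was 0.17. The BiP gene Hspa5, the main chaperone of the ER, was at 104, 96.1 and 109 FPKM in sham and 167, 198 and 256 FPKM in CIH (log2 difference 0.98, SE 0.19, adjusted p = 0.132). Manf, a secreted factor released under ER stress, was at 9.17, 7.06 and 11.9 FPKM in sham and 18.9, 25.6 and 22.9 FPKM in CIH (1.24, SE 0.22, adjusted p = 0.119). Both genes were above every sham library in each CIH library without passing the test over all genes. The disulfide isomerase genes Pdia6 and Pdia4, which join cysteines in folding proteins, gave log2 differences of 0.68 and 0.66 (adjusted p = 0.187 and 0.188). Hsp90b1, Canx, Hyou1 and Derl1 made up the rest of the 8. CIH 1 lay nearest to sham in this list, with a median of 0.04 beside 0.38 and 0.26 in CIH 2 and 3. The list median was 0.29 without CIH 1 and 0.10 without CIH 2. With CIH 1 left out the groups were apart upward in 16 of 29 members, where 18.4% of all tested genes were, and with sham 2 left out in 8, where 7.86% were.

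**Figure D1:**
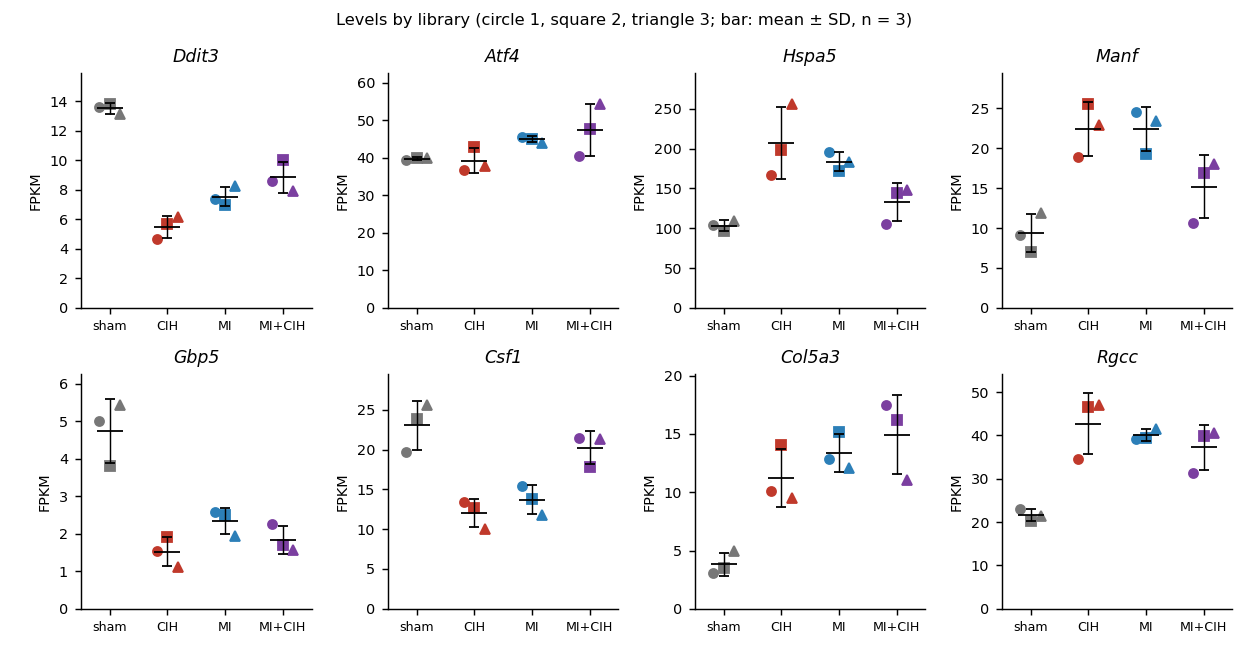
FPKM of 8 genes in each library of sham, CIH, MI and MI+CIH (circle, square and triangle for libraries 1, 2 and 3), with the mean and SD of n = 3 as black bars; every vertical axis starts at 0. Ddit3 stood at 13.1 to 13.8 FPKM in sham and 4.69 to 6.14 FPKM in CIH, while Hspa5 stood at 96.1 to 109 FPKM and 167 to 256 FPKM.

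Among genes with a mean of at least 1 FPKM and groups fully apart, the 12 higher in CIH with the smallest p had adjusted p of 0.0869 to 0.165, and none passed. Col5a3, a chain of type V collagen, was at 3.03, 3.51 and 4.95 FPKM in sham and 10.1, 14 and 9.52 FPKM in CIH (log2 difference 1.44, SE 0.21, adjusted p = 0.0869). Depp1, a small protein switched on by FOXO transcription factors in fasting, was at 40.8, 52.6 and 30.3 FPKM in sham and 111, 147 and 129.8 FPKM in CIH (1.66, SE 0.25, adjusted p = 0.0869). Rgcc, a cell cycle regulator of endothelium, was at 23.1, 20.3 and 21.3 FPKM in sham and 34.6, 46.6 and 47.1 FPKM in CIH (0.96, SE 0.15, adjusted p = 0.0869). In Rgcc and Depp1 the lowest CIH library was CIH 1. Cdkn1a, the cell cycle inhibitor p21, was at 6.52, 6.06 and 6.91 FPKM in sham and 18.5, 32.5 and 14.1 FPKM in CIH, the widest CIH range of the 12. Its log2 difference was 1.58 (SE 0.26, adjusted p = 0.0954). Btnl9 (0.85), a butyrophilin-like gene of capillaries, Rbp7 (1.32), a retinol-binding protein of capillary endothelium, and Rnf144a (0.93), a ubiquitin ligase, were among the others. So were Ilvbl (0.88), an enzyme of the ER, Snhg8 (0.81), which hosts a small nucleolar RNA, and Rps4l (0.94), a copy of a ribosomal protein gene whose reads may be shared with the parent gene.

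The 12 lower genes began with Ddit3, and the other 11 had adjusted p of 0.0869 to 0.129. Mid1ip1, which activates the first enzyme of fat synthesis, was at 50.2, 55.8 and 40.4 FPKM in sham and 16, 14.8 and 22.2 FPKM in CIH (log2 difference -1.45, SE 0.22, adjusted p = 0.0869). Maco1, a membrane protein of the ER, had the narrowest range of the 12 within CIH, with 11.1, 10.4 and 10.6 FPKM in sham and 6.45, 6.22 and 6.36 FPKM in CIH (-0.71, SE 0.10, adjusted p = 0.0869). Slc25a37, the mitochondrial iron importer of red cell precursors, was at 18.3, 27.5 and 11.7 FPKM in sham and 5.7, 5.36 and 6.8 FPKM in CIH (-1.53, SE 0.24, adjusted p = 0.0869). Here the sham libraries differed more among themselves than the CIH libraries did. Csf1, the growth factor of macrophages, was at 19.7, 23.8 and 25.6 FPKM in sham and 13.5, 12.7 and 10.1 FPKM in CIH (-0.91, SE 0.16, adjusted p = 0.107). Cish (-1.04), a feedback inhibitor of cytokine signals, Nr4a3 (-1.22), an immediate early nuclear receptor, Nabp2 (-0.76), a protein of DNA repair, and Hlf (-1.34), an output gene of the clock, were further members.

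Interferon-induced genes lay lower in CIH. All 3 CIH libraries were below all 3 sham libraries in 38 of 70 tested members (54.3%, beside 11.8% of all tested genes) and above them in none. The list median was -0.48, and none of the 70 passed. Gbp5, a guanylate-binding protein of cell defence, was at 5.01, 3.8 and 5.44 FPKM in sham and 1.53, 1.92 and 1.13 FPKM in CIH (log2 difference -1.38, SE 0.19, adjusted p = 0.0869). Tap1, which carries peptides to MHC class I, was at 3.66, 2.94 and 3.92 FPKM in sham and 1.39, 2.11 and 1.25 FPKM in CIH (-0.96, SE 0.18, adjusted p = 0.129). In both, the highest CIH library was CIH 2. Gbp4 (-1.48) and Iigp1 (-0.83), further interferon-induced GTPases, had adjusted p of 0.117 and 0.15, and reads of such families can be shared between near copies. Rsad2, an antiviral enzyme, was at 15.5, 15 and 13.8 FPKM in sham and 5.48, 6.93 and 8.03 FPKM in CIH (-1.08, adjusted p = 0.245). Irf1, a transcription factor of the pathway, differed by -0.47, with no overlap. With CIH 1 left out the number of members apart downward was again 38, while that of all tested genes went to 21.6%. Of 49 members with a promoter window, 27 held GAAANNGAAA and 15 held TTCNNNGAA.

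Antigen presentation and signalling genes around that list were mixed. Of 16 MHC genes, 4 lay below sham in all CIH libraries (25%, beside 11.8% of all tested genes), all of class I. B2m, the light chain of class I, was at 376, 335 and 448 FPKM in sham and 217, 278 and 185 FPKM in CIH (log2 difference -0.78, limma, adjusted p = 0.258). H2-Q7 (-1.25), H2-Q6 (-1.16) and H2-T22 (-0.71) were the other 3, and such class I genes are close copies. The MHC median was -0.19, and 0.01 without CIH 1, where 6 members lay above sham, beside 18.4% of all tested genes. Cytokine and chemokine genes lay below sham in all CIH libraries in 10 of 25 (40%) and above it in none. Of all tested genes 11.8% lay below and 5.67% above, and the list median was -0.23. Ccl12, a monocyte attractant of mice, was at 7.82, 4.16 and 7.12 FPKM in sham and 0.463, 2.56 and 1.74 FPKM in CIH (-1.83, adjusted p = 0.173). Il33, an alarm signal of stromal cells, was at 4.92, 5.73 and 4.67 FPKM in sham and 1.45, 2.99 and 2.06 FPKM in CIH (-1.11, adjusted p = 0.316). Lymphocyte markers lay lower beside them: their summed level was 64.9, 413 and 203 FPKM in sham and 12.9, 43.8 and 22.4 FPKM in CIH, 5 of 15 tested members lay below sham in all CIH libraries, and none passed. That level was set mostly by Igkc, an antibody gene, at 47.4, 311 and 160.0 FPKM in sham and 4.68, 23.2 and 14.1 FPKM in CIH. Macrophage markers had 2 of 19 apart downward (10.5%, near the 11.8% of all tested genes) and a median of 0.05. That median went to -0.17 without sham 2, -0.21 without CIH 2 and 0.21 without CIH 1 or sham 3. The summed level of these markers was 267 to 406 FPKM in sham and 197 to 454 FPKM in CIH. The part of these cells in the interferon and cytokine values was not tested.

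**Figure D2:**
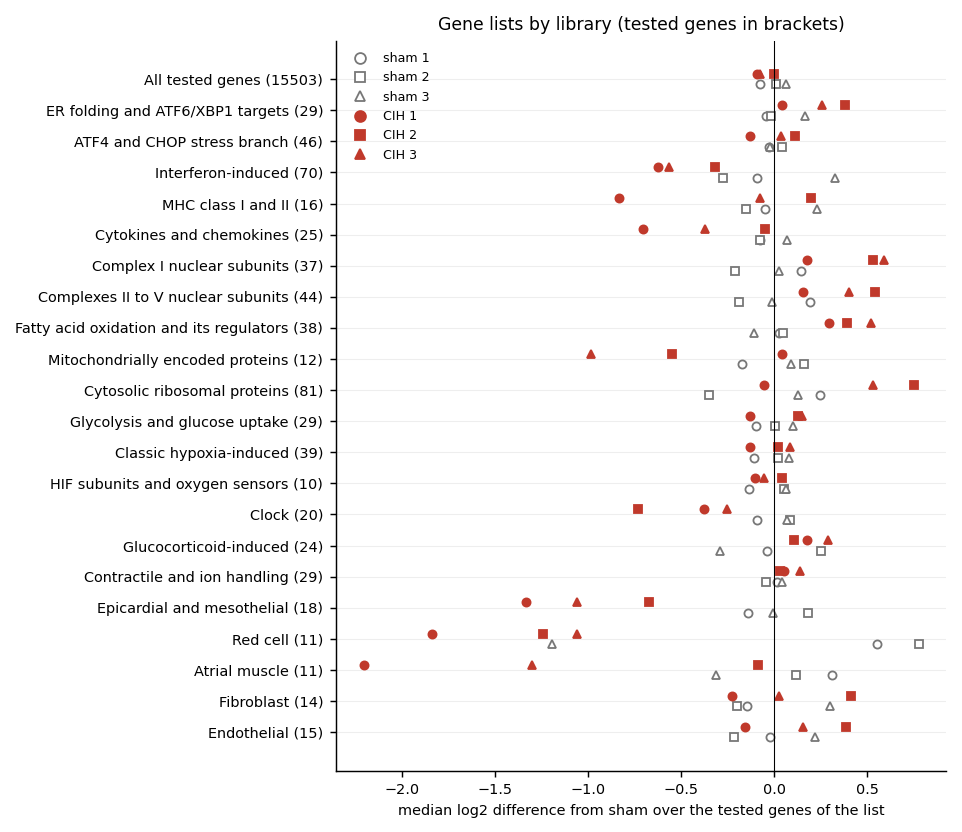
Median log2 difference from sham over the tested genes of each list, for every CIH library (filled) against the mean of the 3 sham libraries and for every sham library (open) against the mean of the other sham libraries. The interferon list lies at -0.62, -0.32 and -0.57 in CIH 1, 2 and 3, the fatty acid list at 0.30, 0.39 and 0.52, and the atrial list at -2.21, -0.09 and -1.30.

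Nuclear genes of the respiratory chain lay higher in CIH. Of 37 complex I subunits, which take electrons from NADH, 17 lay above sham in all CIH libraries and none below, beside 5.67% and 11.8% of all tested genes, with a median log2 difference of 0.48. For complexes II to V the count was 22 of 44, none below, with a median of 0.36. Without CIH 1 the counts were 29 and 33, beside 18.4% of all tested genes. Ndufb3, a small subunit of complex I, was at 117, 88.1 and 90.0 FPKM in sham and 133, 189 and 189 FPKM in CIH (0.78, SE 0.23, adjusted p = 0.284). Cox7c, a subunit of cytochrome oxidase, was at 95.2, 70.4 and 113 FPKM in sham and 195, 193 and 173 FPKM in CIH (1.03, SE 0.28, adjusted p = 0.256). No gene of either list passed. The short transcripts of these lists have median exon lengths of 1569 and 1793.5 bases, against 4455 bases for tested protein-coding genes. Protein-coding genes of 1001 to 2000 bases had a median difference of 0.05, and of -0.20, 0.25 and 0.14 in CIH 1, 2 and 3. The complex I medians in the same libraries were 0.18, 0.53 and 0.59. Cytosolic ribosomal protein genes, with a median exon length of 1739 bases, gave -0.05, 0.75 and 0.53, and 13 of 81 lay above sham in all CIH libraries, a count of 57 without CIH 1. Their median of 0.43 went to 0.65 without CIH 1 and to 0.23 without CIH 2. The part of length in these values was not tested.

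RNAs made from mitochondrial DNA, which encode the partner subunits of the same complexes, did not lie with the nuclear ones. Their share of reads was 9.57%, 9.98% and 9.74% in sham and 12.62%, 6.38% and 5.28% in CIH. For mt-Nd4, a core subunit of complex I, the level was 5001, 5019 and 4098 FPKM in sham and 4367, 1681 and 778 FPKM in CIH (log2 difference -1.39, SE 0.49, adjusted p = 0.334). CIH 1 overlapped sham here, and CIH 2 and 3 lay below it. Over the 12 tested genes the median was 0.04, -0.55 and -0.98 in CIH 1, 2 and 3, and none was apart from sham in all 3, while 7 lay below sham with CIH 1 left out. Mitochondrial ribosomal protein genes were apart upward in 9 of 76 and downward in 3, beside 5.67% and 11.8% of all tested genes, with a median of 0.16. Without CIH 1 these were 37, 5 and 0.29, where 18.4% and 21.6% of all tested genes were apart upward and downward. The median was 0.08 without CIH 2.

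Fatty acid oxidation genes, with a median exon length of 3645.5 bases, lay higher too. All 3 CIH libraries lay above sham in 21 of 38 members and below it in 1, beside 5.67% and 11.8% of all tested genes. The median log2 difference was 0.40. Pdk4, the kinase that shuts carbohydrate out of the mitochondrion, was at 84.7, 111 and 20.2 FPKM in sham and 402, 289 and 221 FPKM in CIH (2.34, SE 0.51, adjusted p = 0.187). Angptl4, a secreted inhibitor of lipoprotein lipase, was at 2.28, 4.94 and 0.732 FPKM in sham and 9.15, 24 and 8.67 FPKM in CIH (2.29, SE 0.52, adjusted p = 0.199). Ucp3, a mitochondrial carrier linked to fat use, was at 17.7, 29.9 and 7.01 FPKM in sham and 51.9, 42.9 and 51.5 FPKM in CIH (1.61, SE 0.52, adjusted p = 0.307). In these 3 genes sham 3 was the lowest library and sham 2 the highest of the sham group. The fasting-responsive thioesterase genes Acot1 (1.07) and Acot2 (0.57) and the enzymes Acaa2 (0.62) and Eci1 (0.59) lay higher as well. The coactivator gene Ppargc1a did not (-0.11, overlapping), and Ppargc1b (-0.66) was the member that lay below sham. None of the 38 passed.

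Genes known for their answer to low oxygen lay on both sides of sham, and none passed. Of 39 classic hypoxia-induced genes, 8 lay above sham in all CIH libraries, 5 lay below, and the median log2 difference was -0.06. Without CIH 1 these were 13, 6 and 0.01. Of all tested genes 5.67% lay above and 11.8% below, and 18.4% and 21.6% without CIH 1. The differences in this list ran from -0.81 to 2.29, the latter that of Angptl4, and Ddit4 (1.33) was also among the 8 above. Bnip3, a trigger of mitophagy, was at 31.2, 30.8 and 27.4 FPKM in sham and 43.5, 40.8 and 41.7 FPKM in CIH (0.49, adjusted p = 0.482). Ldha, which makes lactate, was at 65.2, 61.7 and 73.4 FPKM in sham and 86.9, 107 and 85.8 FPKM in CIH (0.48, adjusted p = 0.358). Vegfa, the vessel growth factor, lay the other way, at 85.8, 79.4 and 87.4 FPKM in sham and 69.4, 64.1 and 63.8 FPKM in CIH (-0.35, adjusted p = 0.425). Pfkfb3, which drives glycolysis, was at 4.34, 8.24 and 4.98 FPKM in sham and 2.81, 3 and 3.57 FPKM in CIH (-0.77, adjusted p = 0.258). Among 10 HIF subunits and oxygen sensors the differences ran from -0.29 to 0.45, and Hif1a itself was at 11.2, 15.4 and 19.8 FPKM in sham and 16.7, 17 and 13 FPKM in CIH. Glycolysis genes had a median of -0.01, with 6 of 29 apart upward and 4 downward, and without CIH 1 0.13, with 13 and 5.

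Clock genes lay on both sides of sham too. The activator gene Arntl was at 0.644, 0.349 and 0.64 FPKM in sham and 2.42, 6.26 and 1.14 FPKM in CIH (log2 difference 1.62, SE 0.38, adjusted p = 0.214). The repressor gene Per2 was at 19.4, 25.1 and 11.8 FPKM in sham and 6.55, 0.894 and 7.98 FPKM in CIH (-2.07, SE 0.60, adjusted p = 0.285). CIH 2 was thus the highest for Arntl and the lowest for Per2, genes whose levels are known to run opposite to each other over a day. Of 20 clock genes 6 lay below sham in all CIH libraries and 1 above, beside 11.8% and 5.67% of all tested genes. Collection times are not in the labels, so time of day and hypoxia cannot be told apart in these genes. Glucocorticoid-induced genes, several of which are also clock or fasting genes, were apart upward in 7 of 24 and downward in 3, with a median of 0.21, which was 0.10 without sham 3. Sgk1, a kinase of salt handling, was at 9.71, 10.2 and 7.56 FPKM in sham and 17, 20.8 and 13.4 FPKM in CIH (0.85, adjusted p = 0.258), while Fkbp5, a standard marker of the hormone, overlapped (-0.06). The medians of immediate early genes followed the library and not the group, at -0.33, 0.62 and -0.29 in sham 1, 2 and 3 and -0.35, 0.53 and -0.17 in CIH 1, 2 and 3. They were thus highest in library 2 of both groups. Of 26 members 2 were apart upward and 1 downward, Nr4a3 (-1.22), beside 5.67% and 11.8% of all tested genes.

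Several lists of other cell types lay lower in CIH. Markers of the epicardium and mesothelium, the outer layer of the heart, lay below sham in all CIH libraries in 14 of 18 members. That is 77.8%, beside 11.8% of all tested genes, and none lay above sham. Their median log2 difference from sham was -1.34, -0.67 and -1.06 in CIH 1, 2 and 3. Their summed level was 135, 157 and 123 FPKM in sham and 54.1, 86.5 and 69 FPKM in CIH. Upk3b, a mesothelial membrane protein, was at 10.4, 11.9 and 13.6 FPKM in sham and 1.81, 4.17 and 1.69 FPKM in CIH (-2.11, SE 0.56, adjusted p = 0.256). Rspo1, a Wnt enhancer of that layer, was at 4.2, 4.15 and 5 FPKM in sham and 0.844, 1.74 and 1.12 FPKM in CIH (-1.54, SE 0.32, adjusted p = 0.165). The count was again 14 of 18 with CIH 1 left out. Red cell markers summed to 847, 846 and 356 FPKM in sham and 144, 385 and 376 FPKM in CIH, with 5 of 11 apart downward and a median of -1.27. Hba-a1, an alpha globin, was at 385, 373 and 129 FPKM in sham and 29.1, 103 and 94.3 FPKM in CIH, and Hbb-bs, a beta globin, overlapped at 139, 142 and 81.5 FPKM and 37.9, 162 and 150.2 FPKM. Sham 3 and CIH 2 and 3 had nearly equal sums of these markers. No gene of these lists passed. Fibroblast markers had a median of -0.03 from CIH libraries that went both ways, at -0.23, 0.42 and 0.03, and 0 of 14 were apart. Endothelial markers had a median of 0.04, from -0.15, 0.39 and 0.15. Of 15, 3 were apart upward and 1 downward, beside 5.67% and 11.8% of all tested genes. Without CIH 1 the fibroblast and endothelial medians were 0.28 and 0.27, with 4 and 6 members apart upward, beside 18.4% of all tested genes.

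Contractile and ion handling genes lay on both sides of sham. Of 29, 7 lay above sham in all CIH libraries and 6 below, beside 5.67% and 11.8% of all tested genes. The median log2 difference was 0.02. Among those above were Tnnc1, cardiac troponin C, at 2315, 2016 and 2523 FPKM in sham and 3132, 3988 and 5169 FPKM in CIH (0.82, adjusted p = 0.362), and Myl3, a myosin light chain (0.75, adjusted p = 0.324). Among those below, Kcnh2, a potassium channel of repolarisation, was at 19.1, 16.9 and 17.9 FPKM in sham and 12.2, 8.75 and 11.4 FPKM in CIH (-0.72, SE 0.18, adjusted p = 0.222). None of the 29 passed. In the list of cardiac stress 1 of 19 was apart, Nppb, which encodes the hormone BNP, at 57.3, 70.8 and 75 FPKM in sham and 78.1, 163 and 82.9 FPKM in CIH (0.59, adjusted p = 0.564). Of 42 collagen and matrix genes 3 lay above sham in all CIH libraries, Col5a3 and the basement membrane chains Col4a1 (0.91) and Col4a2 (0.77), and 1 lay below. Without CIH 1, 19 of the 42 lay above sham, beside 18.4% of all tested genes. The list median of 0.20 went to 0.39 without CIH 1 and to 0.02 without CIH 2. C1qtnf9, which encodes CTRP9, a secreted protein of heart muscle, overlapped at 52.6, 44.4 and 45.9 FPKM in sham and 39.3, 64.3 and 62.8 FPKM in CIH.

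Lists of oxidative stress, NADPH oxidase, cell death, heat shock, cell cycle and renin-angiotensin genes had medians between -0.16 and 0.01. In the antioxidant list 3 of 29 lay above sham in all CIH libraries and 6 below, beside 5.67% and 11.8% of all tested genes. Without CIH 1, 8 lay above, beside 18.4% of all tested genes. Among the 6 below was Osgin1, an NRF2 target, at 3.89, 2.99 and 2 FPKM in sham and 0.851, 0.918 and 1.09 FPKM in CIH (log2 difference -1.22, SE 0.26, limma, adjusted p = 0.179). Gpx3, a secreted glutathione peroxidase, was at 471, 424 and 357 FPKM in sham and 156, 314 and 255 FPKM in CIH (-0.84, adjusted p = 0.43). The NADPH oxidase genes, which make superoxide, overlapped in all 8 tested members. Among 31 cell death genes 4 lay above sham in all CIH libraries (12.9%), Cdkn1a, Fas, Bnip3 and Sesn1. Below sham lay 3 (9.68%), Casp12, Bid and Zmat3, a share under the 11.8% of all tested genes. Neither Bax, at 2.6, 1.73 and 1.78 FPKM in sham and 2.5, 3.65 and 2.64 FPKM in CIH, nor any other member passed.

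The CIH libraries differed among themselves more than the sham libraries did. The SD of log2(FPKM + 0.5) over 3 libraries was larger in CIH than in sham in 65.4% of genes, and its median was 0.246 in CIH, 0.176 in sham, 0.157 in MI and 0.273 in MI+CIH. A range of at least 1 on that scale was found in 2337 genes of CIH (15.1%) and in 1338 genes of sham (8.63%). Of those 2337 genes CIH 1 was the library farthest from the middle in 1149 (49.2%), CIH 2 in 708 (30.3%) and CIH 3 in 480 (20.5%). With CIH 1 left out, 47.6% of genes had the larger SD in CIH, and the same was 57.1% without CIH 2 and 57.8% without CIH 3. Here 2 CIH libraries were set against 3 of sham. At equal spread an SD over 2 libraries tends to be smaller than one over 3, so these shares cannot be set against the 65.4%.

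The genes that most separated the CIH libraries included atrial markers. Of the 12 genes with the widest CIH range among those with a sham range under 1, 4 were in the list of atrial markers: Nppa, Myl7, Myl4 and Stard10. Nppa, the atrial natriuretic peptide, was at 2038, 1666 and 1136 FPKM in sham and 243, 1549 and 414 FPKM in CIH. Myl7, the atrial regulatory light chain, was at 626, 543 and 469.7 FPKM in sham and 84.5, 552 and 156 FPKM in CIH. CIH 2 was thus inside or near the sham range, and CIH 1 and 3 far below. Bmp10, a growth factor of the atrium, was below sham in every CIH library, at 40.7, 41.7 and 20.3 FPKM in sham and 0.522, 6.12 and 0.618 FPKM in CIH (log2 difference -4.07, SE 1.57, adjusted p = 0.362). The widest CIH range was that of Dbp, a transcription factor driven by the clock. It was at 60.5, 62.5 and 90.7 FPKM in sham and 27.5, 7.77 and 73.3 FPKM in CIH. The rest of the 12 were mt-Nd4, Mybphl, Dkk3, Cytl1, Clec3a, Nrgn and Hist2h3b, and CIH 1 was the lowest library in all of these but mt-Nd4. Mybphl, Dkk3 and Hist2h3b were highest in CIH 2 among the CIH libraries, as the 4 atrial markers were. Mybphl was at 3.43, 17.2 and 5.98 FPKM in CIH 1, 2 and 3, and Dkk3 at 4.45, 23.6 and 9.41 FPKM. Cytl1, Clec3a and Nrgn were highest in CIH 3.

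**Figure D3:**
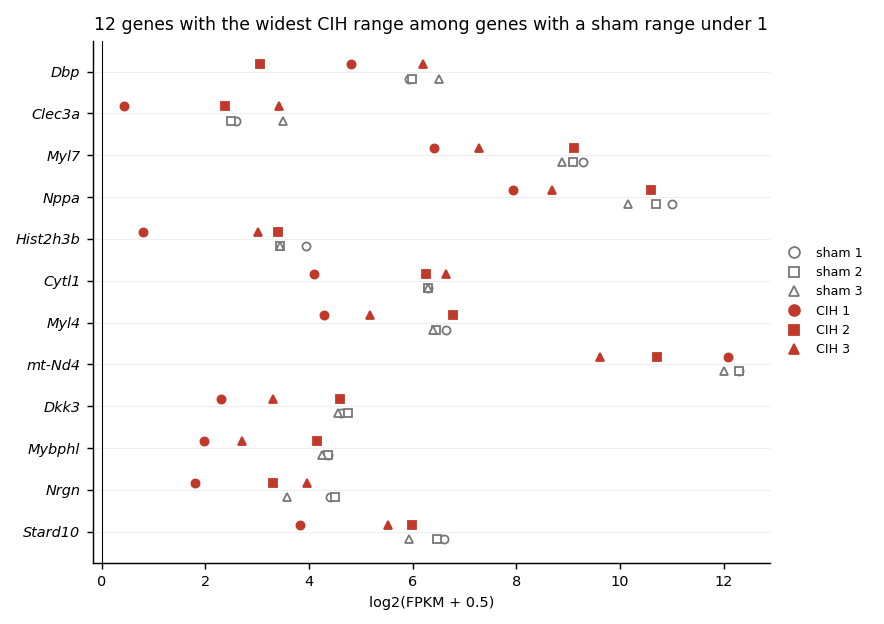
Levels on the log2(FPKM + 0.5) scale of the 12 genes, one row each, for sham (open) and CIH (filled) libraries, with circle, square and triangle for libraries 1, 2 and 3. In Nppa, Myl7 and Myl4 CIH 2 lies with sham and CIH 1 and 3 lie below, as for Myl7 at 84.5, 552 and 156 FPKM in CIH 1, 2 and 3.

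The libraries also differed by class of transcript. The annotation class TEC, single transcripts not yet tested experimentally, had a median log2 difference from sham of 0.13 in CIH 1 and of -0.80 and -0.37 in CIH 2 and 3. Genes of miRNA (0.17, -0.70 and -0.51), snRNA (0.06, -0.72 and -0.68) and snoRNA (0.12, -0.46 and -0.55) were also above sham in CIH 1 and below it in CIH 2 and 3. Among protein-coding genes, those of up to 1000 bases gave -0.18, 0.30 and 0.15 and those over 6000 bases gave -0.06, -0.07 and -0.13. CIH 1 was on the other side of sham from CIH 2 and 3 in each of these classes except the longest. Among coding genes of the lengths between, those of 1001 to 2000 and 2001 to 3000 bases did the same. Those of 3001 to 4000 bases (-0.14, 0.10 and -0.0007) and of 4001 to 6000 bases (-0.11, 0.03 and -0.06) did not. Rpph1, the RNA of ribonuclease P, took 4.97%, 3.26% and 4.38% of summed FPKM in sham and 5.1%, 9.26% and 8.08% in CIH.

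Without CIH 1 the test called 124 genes, 35 higher and 89 lower, where it had called 1. Of the 124, 68 were protein-coding, 26 were of the class TEC, all lower, 11 were processed pseudogenes, and 7 snoRNA, 4 snRNA and 3 miRNA genes were all lower. In 59 of the 124 the groups overlapped once CIH 1 was included. Hspa5, Manf, Pdia4, Pdia6, Gbp5, Gbp4, Iigp1, Col5a3, Depp1, Rgcc and Cdkn1a passed in that fit. Without sham 3 the number called was 11, with Slc25a37, Bpgm, Epb41 and Slc4a1 of the red cell among those lower. Leaving out sham 1, sham 2 or CIH 2 left 0 genes (limma, with 1367, 1145 and 1491 genes at an unadjusted p under 0.05), and leaving out CIH 3 left 1.

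**Figure D4:**
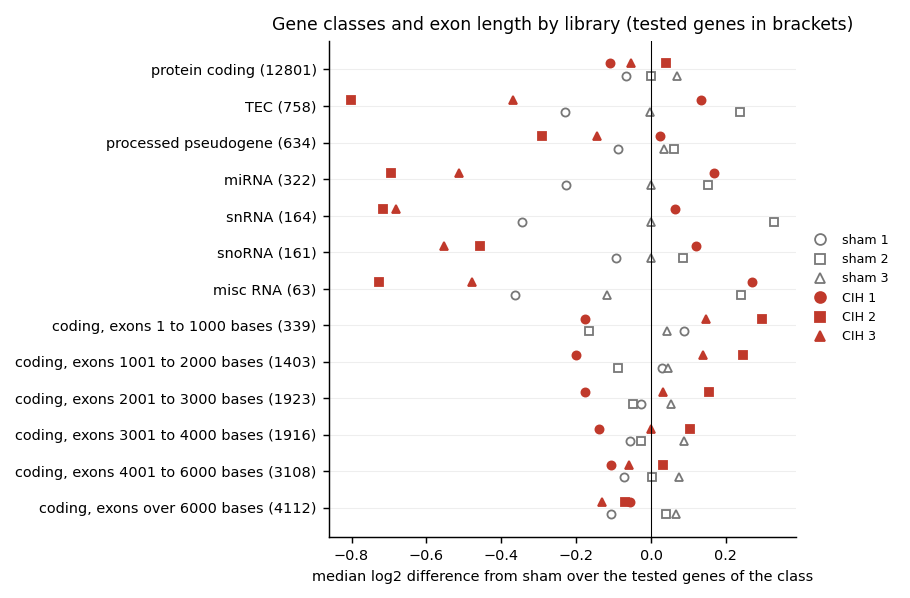
Median log2 difference from sham over the tested genes of each annotation class and of each exon length class of protein-coding genes, for every CIH library (filled) and every sham library (open, against the mean of the other sham libraries). CIH 2 and 3 lie at -0.80 and -0.37 for TEC genes and CIH 1 at 0.13, while for coding genes of up to 1000 bases the order is turned, with 0.30, 0.15 and -0.18.

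Hypoxia in infarcted hearts can be set beside these values, since MI+CIH against MI shares no library with CIH against sham. The labels do not say whether the exposure was the same. Airway markers summed to 381, 3616 and 1602 FPKM in MI+CIH and 4.27, 1.98 and 1.68 FPKM in MI. Neutrophil markers summed to 24.2, 87.8 and 342 FPKM in MI+CIH and 6.19, 5.34 and 4.79 FPKM in MI. The part of such tissue and cells in the differences below was not tested. MI+CIH against MI called 51 genes (0.329%), and 0 of the 24 named genes were among them. The sign was the same in 6 of the 12 higher and 5 of the 12 lower genes, and in 39.7% of all tested genes. Hspa5 was at 196, 172 and 183 FPKM in MI and 105, 145 and 148 FPKM in MI+CIH (log2 difference -0.48, adjusted p = 0.195), the direction opposite to that in hearts without infarction. Gbp4 (-0.71), Nr4a3 (-0.61) and Cish (-0.38) lay lower in both. For Col5a3 the MI libraries already stood apart from sham: it was at 12.9, 15.2 and 12.1 FPKM in MI and 17.5, 16.2 and 11.1 FPKM in MI+CIH, all above the 3.03 to 4.95 FPKM of sham.

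The interaction, which asks whether the hypoxia difference is another one in infarcted hearts, was called in 12 genes (0.0774%). Of the 24 named genes 4 were among them, and since these were named for their CIH against sham difference, which is part of the interaction, their count is a description. The interaction of Ddit3 was 1.45 on the log2 scale (SE 0.18, adjusted p = 0.0396). Csf1, at 15.4, 13.8 and 11.8 FPKM in MI and 21.4, 17.8 and 21.4 FPKM in MI+CIH, gave 1.46 (SE 0.22, adjusted p = 0.0486). Nabp2, at 14.8, 12.3 and 11.8 FPKM in MI and 20.4, 18 and 19.8 FPKM in MI+CIH, gave 1.33 (SE 0.19, adjusted p = 0.0486). Maco1 gave 0.97 (SE 0.15, adjusted p = 0.0486). Ddit3 passed in 10 of 18 other settings, Nabp2 in 8 and Csf1 and Maco1 in 7 each. All 4 calls were lost without sham 1, sham 2, CIH 2, CIH 3 or MI+CIH 3, and without sham 2 the adjusted p was 0.108 for Ddit3 and 0.123 for the other 3.

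**Figure D5:**
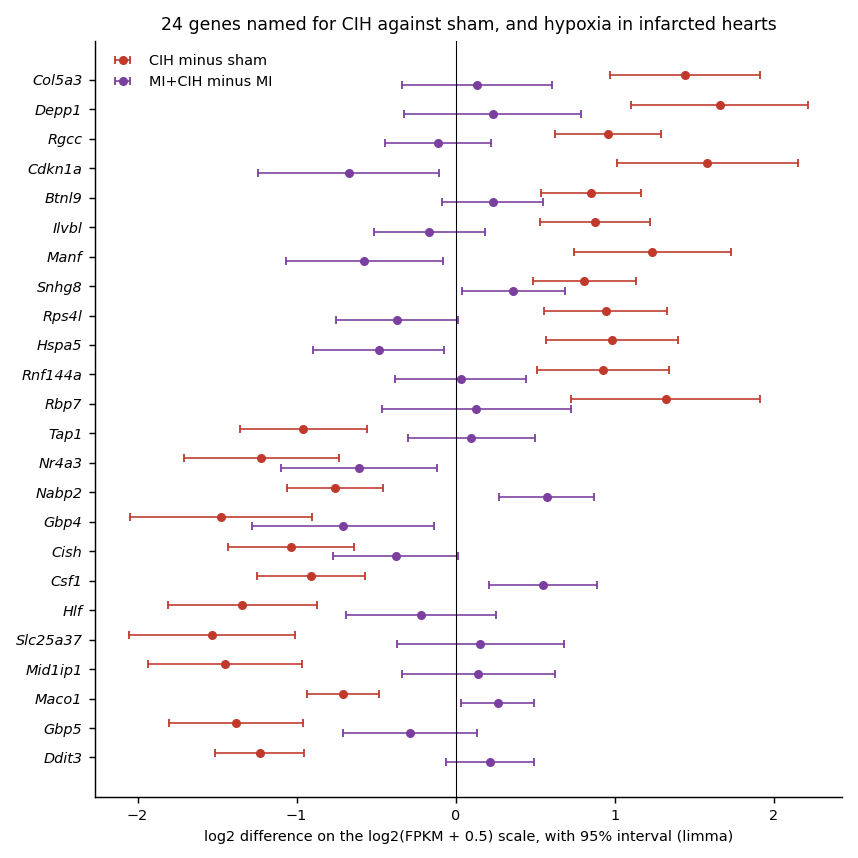
Log2 difference with its 95% interval from limma for the 12 higher and 12 lower genes named for CIH against sham (red), with MI+CIH against MI for the same genes (purple), n = 3 libraries a group. The red intervals exclude 0 by the choice of genes, and the purple ones lie near 0 or on the other side for most, as for Csf1 at -0.91 and 0.55.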

How the data were processed

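The authors deposited 1 table of FPKM for 26781 genes in 12 libraries, whose header numbers match the sample descriptions. Tools listed in the submitters' processing notes, with no roles, are HISAT, DESeq 1.8.3 and featureCounts 1.5.0-p3, with the build mm10, and the labels name a small RNA library kit, although the values cover long messenger RNAs. Strand use is not given in the sources used here, so overlapping genes cannot be told apart. For 22822 of 25429 genes (89.7%), FPKM were whole reads within 0.1 reads in all libraries, with exon lengths of GENCODE M21, and totals were 26.06 to 33.42 M reads. In the shallowest library 1 read on 1 kb is 0.03837 FPKM.

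Log2(FPKM + 0.5) went into a robust limma-trend fit (limma 3.58.1, statmod 1.5.0, R 4.3.3) of 4 group means over 12 libraries, with Benjamini-Hochberg adjustment of p-values over 15503 genes and a threshold of 0.05. A fold change on this scale understates changes of low genes. The code was tested on simulated data. Since no label ties a library to its own animal, the spread behind each p-value may be technical. Genes named are those called, the 12 higher and 12 lower with the smallest p (mean of at least 1 FPKM, log2 difference of at least 0.5, no overlap, and no predicted, unnamed, miRNA, snoRNA, antibody or T cell receptor gene), up to 4 of each of 44 lists, and, with the same limit on gene names, the 12 with the widest CIH range (mean of at least 5 FPKM, sham range under 1). Other list members were chosen with their values seen. Members and lists were chosen with earlier results of these data known. Alternatives were other filters, pseudocounts of 0.1 and 1, scalings, a replicate block and left-out libraries. Voom on recovered reads, leaving out sham 2 with CIH 1, and the counts without CIH 1 were added after seeing the data. Python 3.11.15 with pandas 2.3.3 and matplotlib 3.10.9 made tables and figures.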

Additional observations from a re-analysis of the deposited data

Results flagged for a closer look

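For 4 of the named genes the difference of MI+CIH from MI was another one than that of CIH from sham. The test was limma's, of the difference of differences. For Ddit3 it was 1.45 on the log2 scale (adjusted p = 0.0396), with -1.23 in CIH against sham, lower in 3 of 3 libraries, and 0.21 in MI+CIH against MI. Maco1 gave 0.97 (adjusted p = 0.0486), from -0.71 and 0.26. Csf1 gave 1.46 (adjusted p = 0.0486), from -0.91 and 0.55. Nabp2 gave 1.33 (adjusted p = 0.0486), from -0.76 and 0.57. All 4 genes were named for their difference in CIH against sham, which is part of the interaction. The calls held in 10 of 18 other settings for Ddit3, 8 for Nabp2 and 7 each for Csf1 and Maco1.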

How the results depend on the processing

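The number of genes called was 1 and was also 1 without a filter, with a filter at a mean of 1 FPKM, with both other pseudocounts, median-of-ratios scaling, rescaling without mitochondrial and noncoding RNAs, no robust estimation, and without sham 2 and CIH 1 together, where the 1 gene was Gm26338 and not Ddit3 (adjusted p = 0.119). It was 0 in a fit of only the 6 libraries (1757 genes at an unadjusted p under 0.05, Ddit3 at an adjusted p of 0.130), 2 after quantile normalization (Ddit3 and Rgcc), 10 without MI+CIH 3 and 14 by voom on recovered reads. Leaving out 1 sham or CIH library gave 0 to 124. With the replicate number as a block the count was 0 (1799 genes at an unadjusted p under 0.05, adjusted p = 0.0777 for Ddit3). Same-numbered sham and CIH libraries deviated from their groups with r of -0.128, -0.147 and -0.016, beside -0.047 to 0.172 for other pairs. Such values show no pairing by number and cannot exclude a shared batch or day, which was not tested. The share of genes with the larger SD in CIH was 65.4%, and 66.5% with a pseudocount of 0.1. It was 47.6% to 57.8% with 1 CIH library left out, where an SD over 2 libraries tends to be smaller than one over 3. No call of a named gene reversed. The all-gene median went from -0.07 to 0.02 under quantile normalization. The airway median of -0.98 went to 0.14 without sham 2. Depth limits genes under about 0.5 FPKM, and 3 libraries a group limit the rest.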

Other observations

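For 6 liver genes, chosen after their values were seen, the CIH libraries held low levels. Alb, which encodes serum albumin, was at 0.101, 0 and 0.197 FPKM in sham and 1.09, 10.4 and 9.48 FPKM in CIH. MI 3 held 6.63 FPKM, and the remaining MI and MI+CIH libraries 0.0152 to 0.958 FPKM. Apoa1, an apolipoprotein of plasma, was at 0.192, 0.258 and 0.0533 FPKM in sham and 0.776, 2.76 and 2.44 FPKM in CIH. For Fgb, a fibrinogen chain, the table lists 0 in every sham library and 0.056, 0.408 and 0.332 FPKM in CIH. Mup3, a urinary protein of mice, was listed at 0 in sham and CIH 1 and at 0.532 and 0.311 FPKM in CIH 2 and 3. Ttr and Apoa2, which encode plasma carriers, overlapped. Ttr was at 0.222, 0.0581 and 0.324 FPKM in sham and 0.233 to 1.39 FPKM in CIH, and Apoa2 at 3.72, 2.38 and 0.675 FPKM and 3.11, 4.68 and 5 FPKM. CIH 1 was the lowest CIH library in all 6 genes, and the highest was CIH 2 in 4 and CIH 3 in Ttr and Apoa2.

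Chamber markers were not all lower in CIH. Kcna5, an atrial potassium channel in humans, was at 15.4, 14.5 and 14.8 FPKM in sham and 23.2, 21.5 and 26.6 FPKM in CIH (log2 difference 0.65, SE 0.19, limma, adjusted p = 0.285). Tbx5, a transcription factor of atrium and left ventricle, was at 21.9, 21.2 and 13.5 FPKM in sham and 9.52, 9.69 and 7.2 FPKM in CIH (-1.04, adjusted p = 0.358). Unlike Nppa and Myl7, Tbx5 was low in CIH 2 as well.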
